A study of Drosophila melanogaster with 4 samples.

Results

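Of the 6065 peaks that the Drosophila melanogaster eye disc list holds for the transcription factor Atonal, 330 lie on chromosome arm 2L from 21 Mb to the last peak of the arm, next to the centromere. They were chosen by position alone: sequence 2L, without the separate scaffold 2LHet, and a start of 21 Mb or higher in Release 5 coordinates. Of these 330 peaks, 134 start between 21.4 and 21.55 Mb, where the tandem histone genes lie in that release, and are described as the histone stretch. The other 196 are called the rest.

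The material was eye discs from larvae of the last instar (L3) and of 1 genotype, a knock-in line (ato:GFP) in which Atonal is fused to green fluorescent protein, kept at 25 degrees and not treated. All libraries share this genotype, so there is no untagged control. From the chromatin of 800 discs (400 larvae), 10% was set aside as input and the remainder went into an anti-GFP precipitation, with 2 ChIP and 2 input libraries in all; the labels do not say whether libraries of like kind came from separate collections. The files give 1 peak list for the series and no value per library, so depth per library is unknown. Neither an error between replicates nor a test over samples can be given, and all comparisons between groups of peaks are descriptions.

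Atonal is a proneural basic helix-loop-helix factor that selects the founding photoreceptor, R8, of each unit of the compound eye, and proteins of its class bind short E-box sequences. The replication-dependent histones of Drosophila are made from a single tandem array on 2L, in which a unit with 1 gene for each of the 5 histones is repeated many times. In each unit the genes of His2A and His2B, and those of His3 and His4, are divergent pairs with a shared promoter region, and His1 encodes the linker histone. Units of a longer and of a slightly shorter class are known. Toward the centromere, the arm passes into heterochromatin that is rich in transposons and other repeats.

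A RefSeq gene table of Release 6, used only for names and order, lists 111 genes of this array on 2L: 23 His1, 23 His2B, 20 His2A, 22 His4 and 23 His3 genes. In 19 places they follow each other in the order His1, His2B, His2A, His4, His3. The first protein-coding gene beyond the array is Lamp1. The table's release differs from that of the peaks, so no peak was assigned to a gene, exon or promoter.

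Peaks were crowded into the histone stretch. It was already known as dense when its limits were set, so its density is a description and not an independent result. It held 134 peaks in 150 kb, or 893 peaks per Mb, and 18.01% of its bases lay under a peak. The rest held 196 peaks in 1858 kb (105 per Mb), with 1.61% of bases under a peak. The interior of 2L, which is the 21 Mb before the members, held 358 peaks at 17.0 per Mb, with 0.254% of bases under a peak. In bins of 50 kb the stretch held 34, 51 and 49 peaks, whereas the fullest of the 420 interior bins held 9 and the median interior bin held 0. Almost all of the crowding was at raised control levels. Counting only peaks whose control level was under 1.5 times the lowest in the list, the stretch had 2 peaks (13.3 per Mb), the rest 26 (13.99 per Mb) and the interior 216 (10.3 per Mb). The control level is the value that fold and p-value of a peak together imply for its background. The length of sequence at each control level is unknown, and the part of the control level in these densities was not tested.

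Peaks were sparse beyond both limits of the stretch, but the proximal limit fell between peaks that lay close together. The last peak before 21 Mb was 20895579 to 20895664 (1.68-fold) and the first member was 21042146 to 21042308 (2.34-fold). Only 4 peaks lay between 21 and 21.4 Mb, the last of them at 21331696 to 21331778 (2.02-fold). The first peak of the stretch followed at 21403303 to 21403421, with a fold of 2.48 at the lowest control level of the list. The last peak of the stretch, 21549552 to 21549669 (1.49-fold), was followed closely by 21551891 to 21552014 (1.62-fold), which is counted with the rest.

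**Figure D1:**
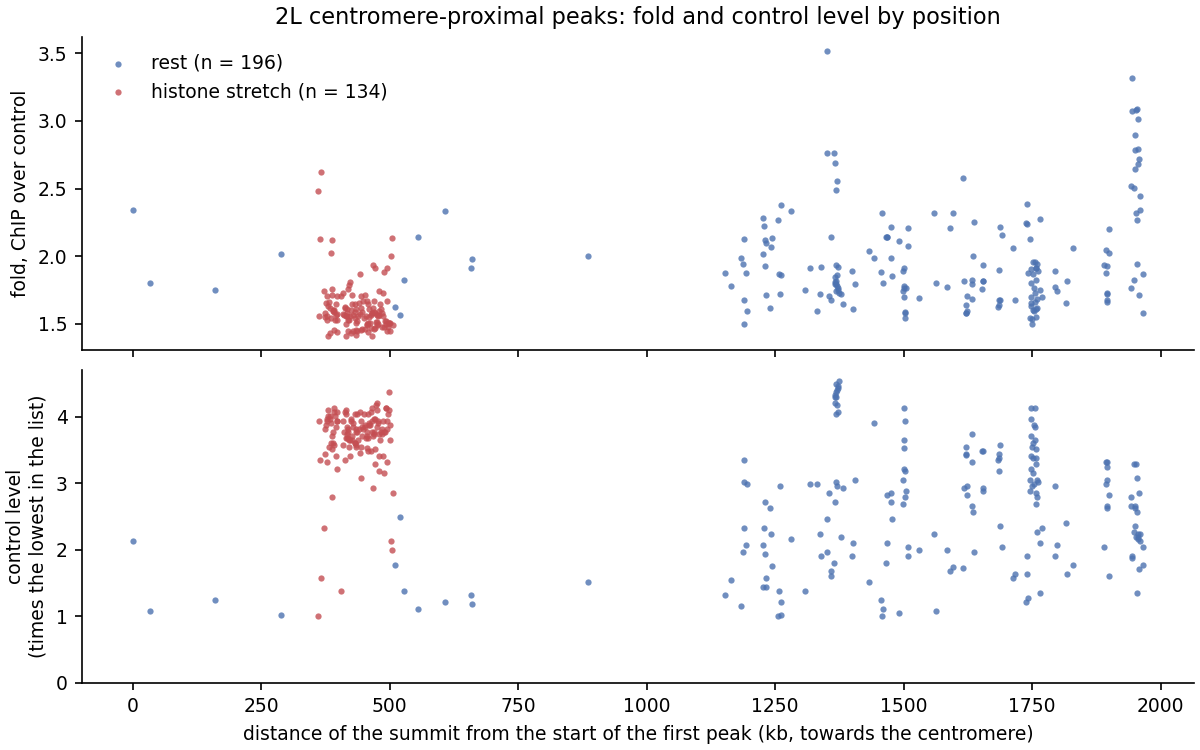
Fold of ChIP over control (upper panel) and implied control level in multiples of the lowest in the list (lower panel) of each of the 330 peaks, against the distance of its summit from the start of the first peak in kb. The 134 peaks of the histone stretch form 1 dense group of low fold (median 1.57) and high control level (median 3.78 times the lowest), whereas the 196 others are scattered in clusters, mostly in the last 808 kb of the arm.

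Within the stretch, the peaks repeated along the sequence. The most frequent distance between summits from 2000 to 10000 bp was 5045 bp, with 35 pairs of peaks within 50 bp of it, against a median of 12 pairs over that range of distances. Of the 134 peaks, 55 (41.0%) had a partner at that distance to within 50 bp. The distance was picked as the best for these same summits, which raises that share. The share at other distances was not computed. In the rest, the most frequent distance was 2558.5 bp with 22 pairs, against a median of 9. The ratio of best to median was thus 2.44 there and 2.92 in the stretch. Of its 196 peaks, 16 (8.16%) had a partner 5045 bp away, but its peaks are less dense, which by itself lowers that share. In the rest only 8 pairs lay at the distance that was best in the stretch.

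The spacing went on over several units. Near 2 units, the most frequent distance in the stretch was 10073 bp with 36 pairs. Near 3 units it was 15169 bp with 29 pairs, and near 4 units 20246 bp with 25 pairs, whereas the median around each of these distances was 11 or 12 pairs. Divided by the number of units, these distances gave 5036.5, 5056 and 5061.5 bp per unit. At the same distances the rest, where peaks are less dense, had 7, 3 and 1 pairs.

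**Figure D2:**
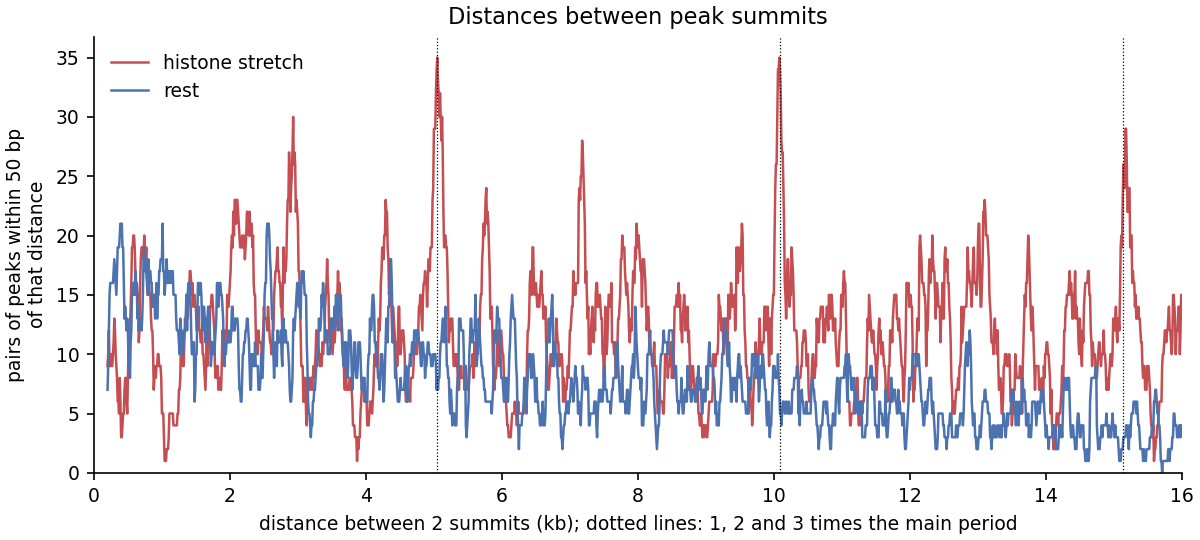
Number of pairs of summits that lie within 50 bp of a given distance, from 200 bp to 16 kb, for the 134 peaks of the histone stretch and the 196 others. The curve of the stretch rises to 35 pairs at 1 unit, marked by the first dotted line at 5.05 kb, and again near the 2 lines after it, while the rest has 8 pairs there.

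The repeating peaks formed 2 blocks, delimited after their values were seen as runs of summits at most 3000 bp apart. The left block, 21414856 to 21440713, held 29 peaks in 25.9 kb. The right block, 21451557 to 21544014, held 98 peaks in 92.5 kb. At a unit of 5053 bp, the period that best folded the bases under peaks of the right block, these spans were 5.12 and 18.3 units long, with 5.67 and 5.36 peaks per unit. Between the blocks lay a single peak, 21447026 to 21447114, with a fold of 1.71 and a control level of 1.38 times the lowest, in contrast to the level of 2.14 to 4.37 times at the 127 peaks of the blocks.

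Both blocks had similar inner distances. The bases under peaks in the right block were most like themselves when shifted by 5046 bp (autocorrelation 0.395), and lesser maxima stood at 2103 bp (0.219) and 2920 bp (0.196). In the left block the highest maximum from 2000 to 10000 bp was at 5065 bp (0.328), with others at 2134 bp (0.188) and 2832 bp (0.247). The pair counts of the left block alone peaked elsewhere, at 2937.5 bp with 8 pairs, against 6 pairs at 5045 bp and a median of 2; with 29 peaks these counts are small. In the last 808 kb of the arm, where most of the rest lies, the autocorrelation from 2000 to 10000 bp reached 0.152, at the 2000 bp limit of the range.

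Folded at 5053 bp, the first 14 of the 18 whole copies of the right block carried peaks at the same places. Sites were taken as positions under a peak in at least 50% of these copies, a rule set after the values were seen, and positions are counted from the first base of the block. Site A, at 1 to 448 bp, and site C, at 2970 to 3393 bp, each held a peak in all 14 copies. Site B, at 2269 to 2371 bp, held one in 11 copies, and site D, at 4734 to 4770 bp, in 7. The 4 sites made up 20.03% of the unit and 66.9% of the bases under peaks, and 6 copies had a peak at every site. From the centre of site A it was 2095.5 bp to that of B, and from B 861.5 bp to C. In contrast, 2363 bp of the unit (46.8%) were under no peak in any of the 14 copies, including an unbroken 1027 bp from position 3429 to 4455, just after site C. These values rest on the 14 copies that lined up. Over all 18 copies, positions under a peak in at least 50% of copies were close to those of sites A to D, and there 16, 12, 15 and 9 copies held a peak. They took in 54.1% of the bases under peaks, 901 bp of the unit (17.8%) were under no peak in any copy, and the longest such run was 256 bp.

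Peaks at the sites differed little in listed fold. Whether an upper limit on the levels has a part in this was not tested. At site A, 20 peaks had folds of 1.46 to 1.76 (median 1.58), and widths centred on 226 bp. At site C, 19 peaks had folds of 1.44 to 1.81 (median 1.58), with widths centred on 199 bp. Site B had 11 narrower peaks (median 124 bp), of 1.46-fold to 1.87-fold (median 1.59). Site D had 7 peaks (median 102 bp), of 1.45-fold to 1.71-fold (median 1.46). Median control levels at the sites, in order, were 3.91, 3.78, 3.71 and 3.68 times the lowest level of the list. Median folds of the sites were thus between 1.46 and 1.59, and median widths between 102 and 226 bp. The sites were picked by the share of copies under a peak. How many copies carried a peak, and in part the widths, therefore follow from that rule.

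The last copies of the right block fell out of step. Each copy was shifted to where it was most like the mean of the first 14 copies, its own left out. Shifts were tried over only a part of the unit in either direction, and those that left the block were skipped. The 14 copies were chosen after the values were seen. Their small shifts, and the poorer fit of the copies left out, follow in part from that choice. The shifts of copies 1 to 11 and of copies 13 and 14 were between -20 and 35 bp, and copy 12 stood at 130 bp. The steps to copies 12 and 13 were thus 5178 and 4918 bp. Copies 15, 16 and 17 were displaced by -220, -395 and -610 bp, which makes the steps from copy to copy 4818, 4878 and 4838 bp there. Before the shift their correlation with the mean profile was 0.198, -0.206 and -0.187, and after it 0.463, 0.586 and 0.579. The value after the shift is the highest of all shifts tried, so it cannot be lower than the value before. How high it would be for an unlike profile was not tested. Copy 15 matched the mean less well than any of the first 14 copies did, the lowest of which gave 0.503. Copy 18, at the block's end, gave its best match among the shifts tried in the opposite direction, at 830 bp and a step of 6493 bp. Its correlation there was only 0.357, and larger shifts were not tried. By these best matches, the spacing of the peaks was shorter in succession at copies 15 to 17 and not at copy 18. The unit lengths of the sequence itself were not analysed here.

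**Figure D3:**
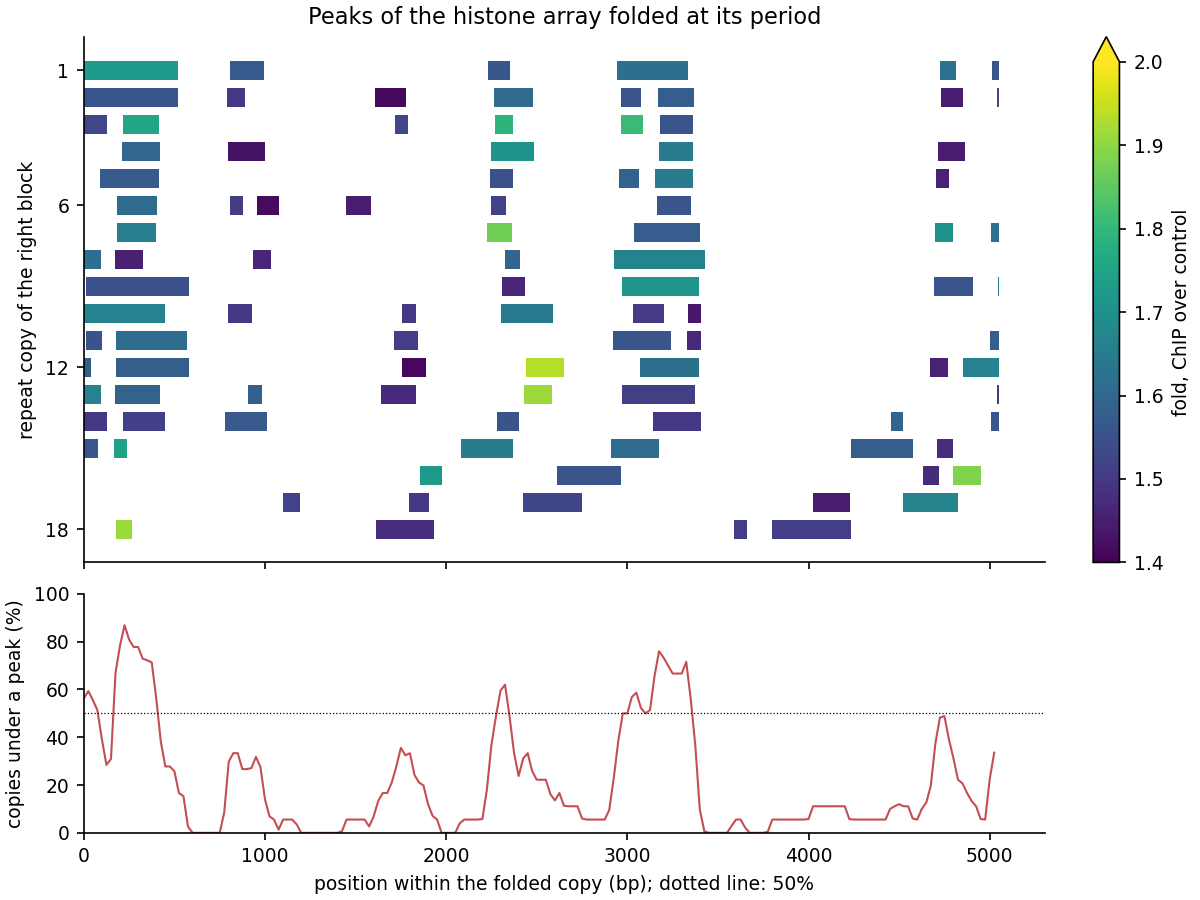
Peaks of the right block of the histone stretch folded at 5053 bp: the upper panel draws each peak as a bar in its repeat copy (1 to 18, from top to bottom), coloured by fold, and the lower panel gives the percentage of the 18 copies under a peak. Copies 1 to 14 line up at sites A and C, and copies 15 to 17 lie progressively further to the left.

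Single copies were much alike in how many peaks they held. The 18 copies had 4 to 7 peaks each (median 5), with 14.2% to 28.6% of their bases under peaks (median 20.8%). The median fold of a copy was between 1.502 and 1.679. Peaks in different copies are not replicates: the units are near-identical in sequence, so a read can match several of them, and how such reads were assigned is not given in the sources used here. Its part in the repeated pattern was not tested.

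The folds in the histone stretch were low and even. Fold, −log10 q and the extent of each peak are the authors' own values. The median fold was 1.57 (quartiles 1.51 and 1.65, range 1.41 to 2.62), against 1.87 in the rest (quartiles 1.72 and 2.14, range 1.496 to 3.52) and 1.94 in the 2L interior. Folds of 2 or more occurred at 7 peaks of the stretch (5.22%), 67 of the rest (34.2%) and 141 of the interior (39.4%). In the whole list the share was 35.4%. The median −log10 q was 2.81 in the stretch, 4.66 in the rest and 2.72 in the interior. Peaks of the stretch were wide, their median being 156.5 bp, while it was 111 bp in the rest and 110 bp in the interior. At least 200 bp were spanned by 53 peaks of the stretch (39.6%), 32 of the rest (16.3%) and 53 of the interior (14.8%). The difference in width was not seen at like control levels: at 3 to 4 times the lowest level, the median width was 152.5 bp in the stretch, 139 bp in the rest, 157 bp in the interior and 153 bp in the whole list. At 4 to 5 times it was 317, 335, 372 and 343 bp. In the rest, 13 of the 16 peaks in that last range lay in 1 cluster, described below.

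The low folds of the stretch went with a high background. Its median control level was 3.78 times the lowest, with quartiles of 3.58 and 3.94. That of the rest was 2.64 times and that of the interior 1.25 times. A level of at least 3 times was found at 125 peaks of the stretch (93.3%), 63 of the rest (32.1%) and 40 of the interior (11.2%). The ChIP level was raised as well, with a median of 104 in the stretch, 90 in the rest and 47 in the interior. Between 3 and 4 times the lowest control level, the median fold was 1.58 in the stretch (n = 100 peaks), 1.73 in the rest (n = 47), 1.62 in the interior (n = 30) and 1.70 in the whole list (n = 1352). Between 4 and 5 times it was 1.51 (n = 25), 1.79 (n = 16), 1.64 (n = 10) and 1.70 (n = 347). Of those 16 peaks of the rest, 13 stood at the top ChIP levels of the list, in 1 cluster described below. Their folds may not measure enrichment, and the others had folds of 1.66 to 1.70. In these 2 ranges, which hold 125 of its 134 peaks, the stretch had the lowest median of the 4. At lower control levels its few peaks had the highest: 2.48 at 1 to 2 times (n = 3, against 2.02, 2.05 and 2.08) and 1.97 at 2 to 3 times (n = 6, against 1.93, 1.67 and 1.82). Both levels varied little over the 127 peaks of the blocks, with a ChIP level of 104 ± 7.72 and a control level of 65.6 ± 5.78 (mean ± SD over peaks). Over the rest they were 88.2 ± 28.5 and 45.2 ± 15.9. The levels of the stretch reached 129 for ChIP and 76.6 for control, not far below the highest of the list, 138 and 79.4. Whether an upper limit on the levels has a part in the low and even folds was not tested.

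**Figure D4:**
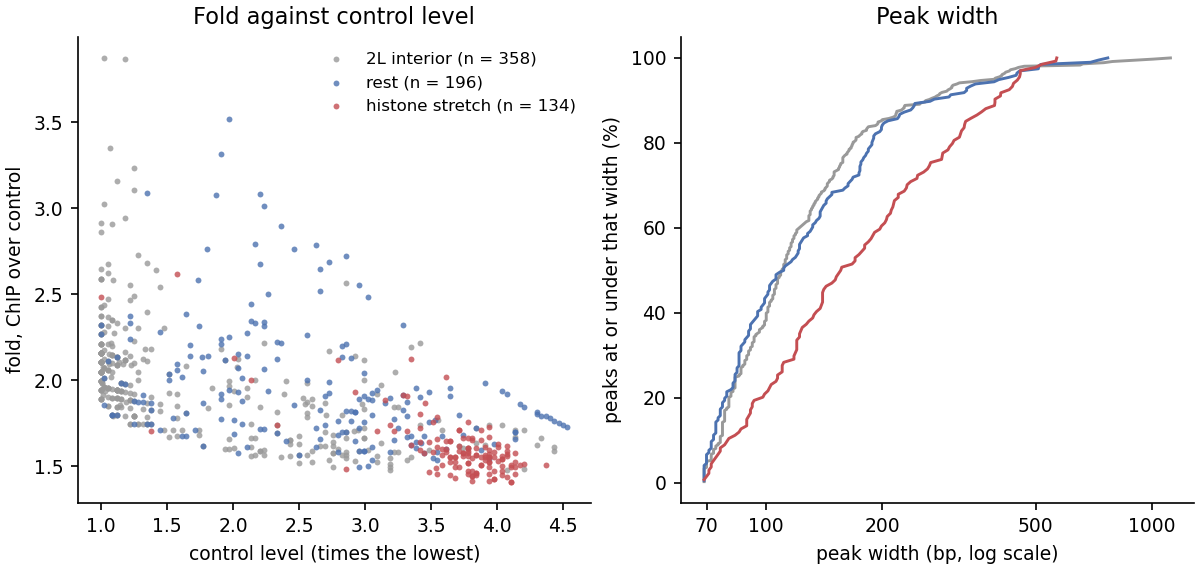
Left, fold against control level for each peak of the 2L interior (358), the rest (196) and the histone stretch (134); right, the cumulative percentage of peaks at or under each width, on a log scale in bp. Peaks of the stretch sit together around 3.78 times the lowest control level and a fold of 1.57, and their width curve, with its middle at 156.5 bp, lies to the right of both others over most of its course.

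The strongest peaks of the stretch were spread over both blocks and the short groups of peaks outside them. By −log10 q the first was 21406531 to 21406758, with a fold of 2.13, a width of 228 bp and a −log10 q of 10.1. The second, 21408462 to 21408533, had the highest fold of the stretch, 2.62, over 72 bp and a control level of 1.58 times the lowest. Both lie in the short group of 4 peaks before the left block. The next 2 were in the left block, at 21428006 to 21428332 (2.02-fold, 327 bp) and 21430971 to 21431053 (2.12-fold, 83 bp). Of the 6 after these, those in the right block were 21484099 to 21484237, 21509578 to 21509790, 21514622 to 21514777, 21532149 to 21532302 and 21537636 to 21537721, with folds from 1.87 to 1.93. The remaining one, 21547088 to 21547239 (2.13-fold), lay beyond the blocks at 2.00 times the lowest control level. The widest peak, 21491993 to 21492559 (567 bp), had a fold of 1.55. The lowest fold, 1.41, was shared by 21421928 to 21422047 and 21458216 to 21458385.

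The 196 other peaks were unevenly spread. From 21 to 21.4 Mb there were 4 (10.0 per Mb), and between 21.55 and 22.2 Mb there were 9 (13.8 per Mb). These 13 peaks were narrow, with median widths of 94.5 and 88 bp, and had control levels close to the lowest, with medians of 1.17 and 1.31 times. The limit at 22.2 Mb was not planned and falls where the bins of 50 kb change from 1 peak to 8. The difference in density across it thus follows in part from its choice. The last 808 kb of the arm held the other 183 peaks, at 226 per Mb and a median control level of 2.73 times. Of these 183, 128 (69.9%) had another summit within 1000 bp, against 124 of the 134 in the stretch (92.5%) and 101 of the 358 in the interior (28.2%). The median distance to the nearest summit was 605 bp in the last 808 kb, 565 bp in the stretch and 6075 bp in the interior.

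Clusters made up a large share of the rest. Joined where successive summits lay within 3000 bp, a limit set after the values were seen, the 196 peaks formed 64 groups, of which 34 were single peaks. The 4 groups of at least 10 peaks held 74 peaks (37.8%). They were 22405991 to 22415807 (17 peaks), 22541288 to 22546880 (10), 22787889 to 22803524 (26) and 22984115 to 23002956 (21).

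The cluster of 17 peaks was the most densely covered of the 4, and most of its peaks stood at the top ChIP level of the list. Peaks covered 56.3% of its 9817 bp and had a median width of 331 bp. Its widest, 22413283 to 22414051, was the widest of all members at 769 bp. The highest ChIP level anywhere in the list was 138, and 122 of the 6065 peaks stood at 137 or 138. Of the 15 members among them, 13 were in this cluster, all with control levels over 4 times the lowest, and none were in the histone stretch, where the highest ChIP level was 129. The highest control level in the list, 79.4, was 138 steps of the 0.576 in which control levels moved, so ChIP and control ended at the same number. Levels at this ceiling may be lower than the true ones, and the folds of these 13 peaks are then not measures of their enrichment; whether the levels were capped was not tested. With them, the median fold in the cluster was 1.82. None of the 3 peaks that passed 2.5-fold were among the 13. The strongest by −log10 q was 22408239 to 22408692, with 2.69-fold enrichment over 454 bp. Joining only peaks within 500 bp left 16 of the 17 in 1 region.

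The cluster nearest the arm end looked different. Its 21 peaks were narrow, with a median width of 79 bp (quartiles 74 and 94 bp, where the smallest width in the list is 69 bp), and covered 11.5% of 18842 bp. Their median fold was 2.65, with a range from 1.71 to 3.32, and their median −log10 q was 13.99. They made up 13 of the 19 peaks of the rest that reached 2.5-fold. Outside this cluster 6 of 175 peaks of the rest did. Control levels here were intermediate, with a median of 2.27 times the lowest and a range from 1.35 to 3.28.

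Most of the strongest peaks of the rest lay in that cluster. By −log10 q the first was outside it, at 22392744 to 22392817, with a fold of 3.52 over 74 bp, a −log10 q of 26.8 and a control level of 1.97 times the lowest. Another peak of the 10 strongest, 22392386 to 22392464 (2.76-fold, 79 bp), lay just before it. From the end cluster, 22985991 to 22986066 reached 3.32-fold, 22993573 to 22993648 3.08-fold, 22986885 to 22986953 3.08-fold and 22998985 to 22999062 3.01-fold. Further peaks of the same cluster were 22993055 to 22993136 (2.90-fold), 22992514 to 22992594 (2.78-fold) and 23000513 to 23000606 (2.72-fold, at the ceiling of the ChIP level). All of these 7 peaks were between 69 and 94 bp wide.

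The clusters of 10 and 26 peaks had the lowest median folds of the 4. That of the cluster of 17, 1.82, rests mostly on peaks at the ceiling of the ChIP level. The former had a median fold of 1.75 and a median control level of 3.20 times, the latter 1.71 and 3.33 times, and no peak of either reached 2.5-fold. The weakest peak of the rest, 22791069 to 22791153 (1.496-fold), was in the cluster of 26. Successive summits there lay a median of 413 bp apart, and the bases under its peaks gave an autocorrelation of 0.264 at 412 bp and 0.181 at 8181 bp. The last member of all, 23008321 to 23008389, was a weak peak of 1.58-fold after the end cluster.

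**Figure D5:**
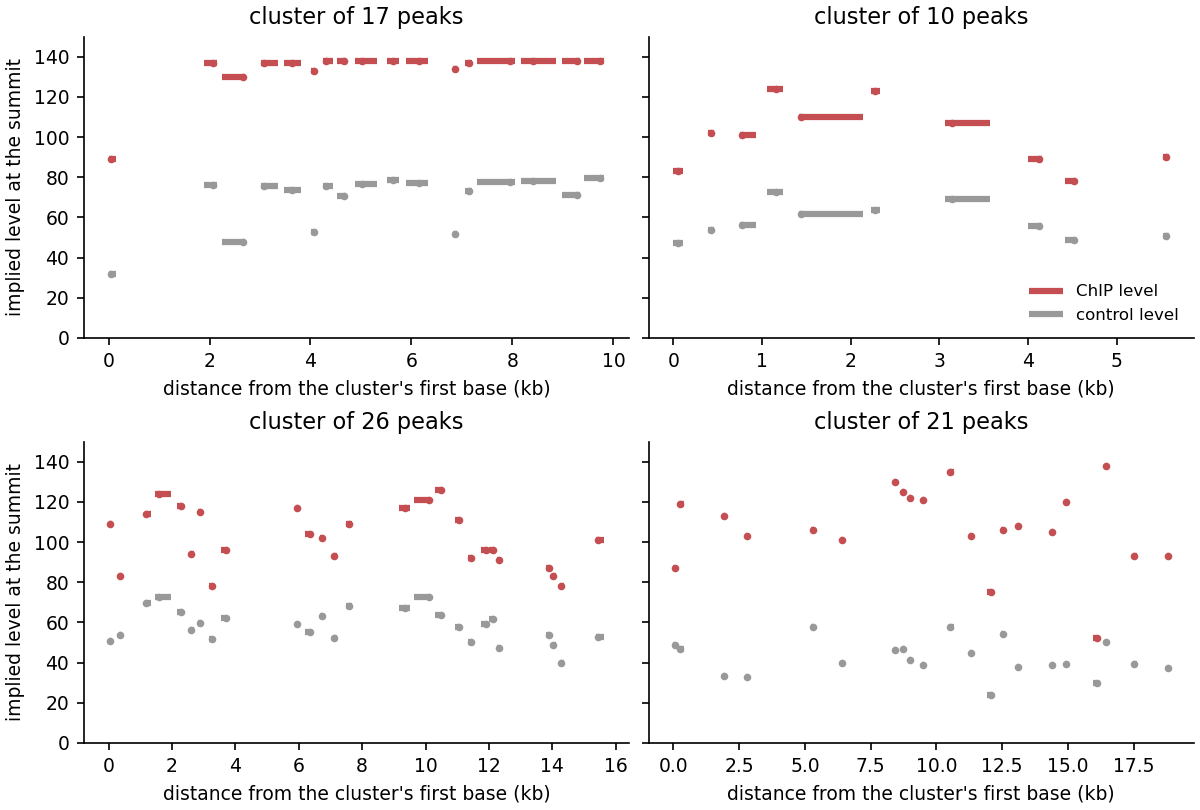
Implied ChIP and control levels of each peak in the 4 clusters of at least 10 peaks among the rest, against the distance from the first base of the cluster in kb; bars span the peak and dots mark the summit. In the cluster of 17, 13 peaks stand at the top ChIP levels of 137 or 138, where folds may not measure enrichment. In the cluster of 21 the median of the listed folds is the highest of the 4 (2.65) while the peaks are narrow.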

How the data were processed

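The authors deposited 1 peak list without a header, in 10 columns of the narrowPeak layout. Per the submitters' processing notes, Bowtie2 2.2.1 was used. For peak caller, pooling and genome build, the sources used here give nothing; the Het scaffold names point to Release 5. Deposited per peak are a score (the whole part of 10 times −log10 q, in 6065 of 6065 peaks), the fold ratio of ChIP over control, the −log10 p-value and −log10 q-value, and the summit. Starts were shifted by 1 to count from 1.

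ChIP and control levels were computed from the deposited fold and −log10 p as MACS2 relates them, with fold as (ChIP + 1)/(control + 1) and p as the Poisson tail above a whole-number ChIP level. Both were found for 6065 of 6065 peaks (largest misfit 8.29e-05, next-best number at least 0.0247). These are not read depths, and 320 peaks share the lowest control level.

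Pairs of summits were counted within 50 bp of each distance from 2000 to 10000 bp. Peaks were named by a rule: the 10 of highest −log10 q, the extremes, and those at the limits. Folding used the bases under peaks, with units of 4000 to 6000 bp. Single-linkage classes of folded summits, planned for the whole stretch, and other settings are given in the closing section. Scripts were tested on simulated data. Members and lists were chosen with earlier results of these data known. Python 3.11.15, numpy 2.4.6, pandas 2.3.3 and scipy 1.17.1 were used. Sequences of the peaks were not analysed here.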

Additional observations from a re-analysis of the deposited data

How the results depend on the processing

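The period of 5045 bp stayed within 50 bp in 7 of 9 alternatives, at 5014 bp with midpoints, 5047.5 bp with starts, 5033.5 and 5052.5 bp with windows of 20 and 100 bp, 5058.5 bp for the 31 peaks at or above the median score (4 pairs only), 5039.5 bp in the right block and 5046 bp by autocorrelation. The summed power of harmonics 1 to 4 was highest at 2497 bp, of which 4994 bp is the double, and the left block alone gave 2937.5 bp; the cause was not tested. The 134 peaks of the stretch became 31 at or above the median score, 75 regions after merging within 500 bp, 2 below 1.5 times the lowest control level, and 102 with limits at the longest run of summits under 6000 bp apart (21447026 to 21552014). The 196 others became 123, 127, 26 and 228. Folded summits of the whole stretch fell into 13 classes, 31 with gaps of 50 bp and 4 with gaps of 200 bp, so that their number is set by the gap; the sites under a peak in 50% of all 18 copies of the right block were 4. The median fold of the stretch was 1.76 at or above the median score, which is a limit on −log10 q itself, 2.10 for the 2 peaks of low control level, 1.62 after merging and 1.57 in the 2 blocks. In the rest it was between 1.85 and 2.00 in every alternative run. The blocks, the folded sites and the omission of the end cluster were chosen after seeing the data, and the limit at 22.2 Mb was not planned. No paired analysis was possible because values exist per peak only, not per library, and for that reason no replicate could be left out.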

Other observations

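The implied control levels were not continuous. In the 2 blocks of the histone array, 123 of 127 control levels lay within 0.02 steps of a whole multiple of 0.576, the step that gave the most such values. With the same step this held for 187 of the 196 other members (95.4%), 260 of the 358 peaks of the 2L interior (72.6%) and 5198 of all 6065 (85.7%).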
